A study of Mus musculus with 13 samples.

Results

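The genes described here are 10 members of the fibroblast growth factor (FGF) system of the mouse, 6 ligands (Fgf1, Fgf2, Fgf7, Fgf9, Fgf10 and Fgf18) and the 4 receptor tyrosine kinases (Fgfr1, Fgfr2, Fgfr3 and Fgfr4). They were chosen by name, for their known support of satellite cells and of lung epithelium, with earlier results of these data known. The shares of members called below are therefore descriptive and not an unbiased estimate. The deposited table holds 23418 genes, and all 10 were among the 15412 genes that passed the filter on low counts. The series sequenced bulk RNA from 4 libraries of muscle FAPs (numbered 2 to 5), 5 of lung FAPs (1 to 5) and 4 of MEFs (1 to 4). In the field FAP stands for fibro/adipogenic progenitor, a mesenchymal cell that lies between muscle fibres, and MEF for mouse embryonic fibroblast. The labels give both abbreviations alone and name no treatment. The question stated for the series was which transcripts of muscle and lung FAPs stimulate the differentiation of satellite cells, the stem cells of muscle. Parabiosis, also named for the series, was not analysed here. The strain, genotype, age and sex of the mice, how FAPs were sorted, and how any cells were cultured is not given in the sources used here.

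FGF ligands are secreted proteins that bind heparan sulfate on the cell surface and, together with it, bring FGF receptors into pairs that signal through the RAS and MAP kinase cascade. Which ligand fits which receptor depends on alternative exons of FGFR1, FGFR2 and FGFR3: FGF7 and FGF10 act on the epithelial form of FGFR2, FGF9 and FGF18 act mainly on the mesenchymal forms and on FGFR4, and FGF1 acts on all forms. In lung, FGF10 from mesenchyme drives branching of the epithelium and FGF9 from mesothelium and epithelium acts back on mesenchyme, and in muscle FGF2 is a mitogen for satellite cells. A count per gene sums over all forms of a receptor, so the epithelial and mesenchymal forms cannot be told apart in these data.

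The promoters of 4 members are shown because they belong to the contrasts the results turn on: Fgf7 and Fgf10, ligands of the same receptor form that differed between muscle and lung FAPs in opposite directions, and Fgfr3 and Fgfr4, the receptors with the largest differences between both kinds of FAP among the members. Each runs 5′ to 3′ over 300 bases, 250 before the RefSeq start and 50 after it, in GRCm38.p6 on the plus strand, and capitals mark GC boxes (GGGCGG, read on either strand). Fgf7 lies at chr2:126034408-126034707, Fgf10 at chr13:118714449-118714748, Fgfr3 at chr5:33721474-33721773 (the first of 2 starts) and Fgfr4 at chr13:55152568-55152867.
Fgf7: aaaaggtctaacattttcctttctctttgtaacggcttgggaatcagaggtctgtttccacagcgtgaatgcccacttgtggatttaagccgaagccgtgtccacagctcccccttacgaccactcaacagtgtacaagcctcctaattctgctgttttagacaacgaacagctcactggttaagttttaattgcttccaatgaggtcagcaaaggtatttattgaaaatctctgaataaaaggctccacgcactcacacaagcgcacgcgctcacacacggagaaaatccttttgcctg
Fgf10: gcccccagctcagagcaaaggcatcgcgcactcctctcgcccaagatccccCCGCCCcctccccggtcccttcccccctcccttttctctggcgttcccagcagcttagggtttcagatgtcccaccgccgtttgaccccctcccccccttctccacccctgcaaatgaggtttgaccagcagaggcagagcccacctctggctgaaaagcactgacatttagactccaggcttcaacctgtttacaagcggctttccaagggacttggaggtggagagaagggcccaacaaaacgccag
Fgfr3: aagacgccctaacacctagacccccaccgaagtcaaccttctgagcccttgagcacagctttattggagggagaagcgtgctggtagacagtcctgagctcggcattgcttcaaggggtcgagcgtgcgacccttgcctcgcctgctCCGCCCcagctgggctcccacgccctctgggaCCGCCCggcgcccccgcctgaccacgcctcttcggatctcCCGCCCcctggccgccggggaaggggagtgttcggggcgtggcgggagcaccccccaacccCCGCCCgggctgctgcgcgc
Fgfr4: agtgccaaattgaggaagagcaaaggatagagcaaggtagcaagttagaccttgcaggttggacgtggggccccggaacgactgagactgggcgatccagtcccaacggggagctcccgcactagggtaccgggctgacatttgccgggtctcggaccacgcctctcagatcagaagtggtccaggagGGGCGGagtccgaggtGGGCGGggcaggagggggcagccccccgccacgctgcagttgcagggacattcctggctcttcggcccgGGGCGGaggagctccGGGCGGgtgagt
The Fgf7 window held no GC box and was 45.7% G and C with 11 CpG pairs. Fgf10 held 1 GC box at 60.7% G and C, while Fgfr3 held 4 at 69.7% and Fgfr4 held 4 at 65.3%. Over 32851 mouse promoters of the same length, 35.7% held a GC box and the median was 52.7% G and C with 7 CpG pairs. The other letters searched on both strands were a TATA box (TATAAA, in 13.6% of promoters), an AP-1 site (TGANTCA, 7.81%), a T-box site (AGGTGTGA, 1.28%), a GLI site (GACCACCCA, 0.253%) and an E-box (CACGTG, 7.15%). None of these 5 was in the 4 windows shown. Promoters of 8 of the 10 members were searched, those of Fgf1 and Fgfr1 were not, and of the 8 members Fgfr2 had the 1 E-box.

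In the genome (RefSeq, GRCm38.p6) Fgf2 lies at chr3:37348477-37410106, Fgf7 at chr2:126034658-126091185, Fgf9 at chr14:58070671-58112854, Fgf10 at chr13:118714699-118792573 and Fgf18 at chr11:33116970-33147400, and Fgf1 is on chromosome 18. Fgfr1 lies at chr8:25518759-25575718, Fgfr2 at chr7:130162451-130266808, Fgfr3 at chr5:33721724-33737068 and Fgfr4 at chr13:55152818-55168759. Counting by strand is not stated, so reads of exons that overlap another gene cannot be assigned with certainty. In the GENCODE M21 annotation the overlap was 13.9% of exon bases for Fgfr3 (with the opposite-strand G630022F23Rik) and 9.44% for Fgf2 (with the opposite-strand Nudt6). It was under 4% for any single overlapping gene of Fgf2, Fgf10, Fgfr1 or Fgfr2 otherwise.

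Levels are CPM, counts scaled to the library total and by TMM, and a fold change is the log2 ratio from edgeR's quasi-likelihood test. The standard error (SE) beside a fold change is not edgeR's and was computed from the spread of log2 CPM with a prior count of 2. A gene was called at a Benjamini-Hochberg adjusted p under 0.05 over all genes tested. The labels do not say that replicates came from separate animals or cultures, so p-values reflect the spread between these libraries alone, and that spread may be technical. Total counts per library were 41327292 to 44699463 in FAPs of muscle, 28636183 to 35464622 in FAPs of lung and 33756915 to 41466585 in MEFs. Of 9 FAP markers, 7 stood higher and 1 lower in muscle FAPs against MEFs, and 6 were higher and 2 lower in lung FAPs against MEFs. Pdgfra stood at 1269.95 to 1487 CPM in FAPs of muscle, 776 to 846 in FAPs of lung and 23.0 to 34.7 in MEFs, while lung FAPs were below MEFs in Thy1 (35.5 to 103 CPM, against 153 to 224) and Vim (1899 to 2888, against 3752 to 4125). The lung FAP libraries were uneven in markers of other cells. Lung FAP 2 had the highest level of 12 of 12 endothelial markers and 10 of 10 markers of pericytes and smooth muscle among lung FAPs, and lung FAP 3 of 10 of 12 tested lung epithelial markers, with the surfactant gene Sftpc at 2181 CPM. MEFs were uneven in blood markers, whose sum ran from 173 CPM (MEF 3) to 598 (MEF 1), with Lyz2 at 67.6 to 322. Muscle FAPs had a sum of 6.42 to 8.64, and lung FAPs one of 52.0 to 87.8 outside lung FAP 3 (765). Of 12 tested blood markers, 9 were lower and 1 higher in muscle FAPs than in MEFs. For lung FAPs 6 were lower and 3 higher. The part of blood RNA in MEF levels was not tested. Between muscle and lung FAPs, 11 of 12 tested endothelial markers, 8 of 10 of pericytes and smooth muscle, 11 of 12 of blood, 8 of 12 of lung epithelium and 7 of 7 of mesothelium were lower in muscle FAPs, and 8 of 8 tenocyte markers were higher. In bulk samples fewer cells of a type and less RNA per cell cannot be told apart.

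Of the 10 members 9 were called between muscle FAPs and lung FAPs, 3 higher and 6 lower in muscle FAPs, against 48.2% of all genes tested (23.2% higher and 25% lower). The 3 that were higher were Fgf7, Fgf18 and Fgfr1. The 6 that were lower were Fgf1, Fgf9, Fgf10, Fgfr2, Fgfr3 and Fgfr4, and Fgf2 was not called. The libraries of both groups did not overlap for 9 members, against 37.9% of all genes tested. The 3 higher and 6 lower calls held under each of the 23 alternatives run, except that Fgf9 is not tested under the filter that asks for 5 CPM in 4 or more libraries.

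**Figure D1:**
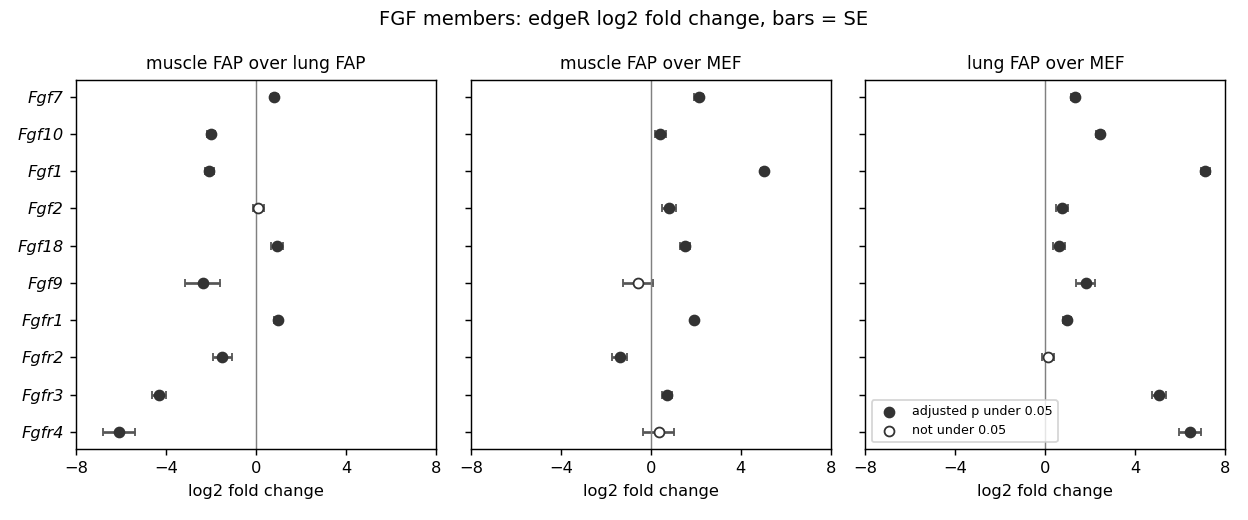
Log2 fold change of each member in the 3 comparisons, with the SE as bars; filled points have an edgeR adjusted p under 0.05 and open points do not. In muscle over lung FAPs Fgf7, Fgf18 and Fgfr1 lie right of 0 and 6 members lie left of it, down to −6.10 for Fgfr4, and in lung FAPs over MEFs 9 members are filled and lie right of 0.

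FGF7 and FGF10 are secreted by mesenchyme and act on epithelium. Fgf7 had 89.5, 114, 102 and 73.5 CPM in FAPs of muscle, against 52.1, 54.3, 51.0, 56.2 and 57.7 in lung FAPs. Every muscle FAP library was above every lung FAP library, and the lung FAP values lay close together. Fgf7 was 1.75-fold higher in FAPs of muscle (log2 fold change of 0.81, SE 0.14, edgeR adjusted p = 2.68e-04). Fgf10 went the other way, with 18.2, 11.7, 14.7 and 10.7 CPM in muscle FAPs against 62.4, 54.5, 56.9, 46.2 and 57.5 in lung FAPs. Its groups did not overlap, and it was 4.01-fold lower in muscle FAPs (log2 fold change of −2.003, SE 0.18, edgeR adjusted p = 4.35e-07). Scaled by the length of the longest annotated transcript (RPKM), the Fgf7 level was 10.95 times the Fgf10 level in muscle FAPs (7.56 to 15.0 over libraries), 1.52 times in lung FAPs (1.29 to 1.87) and 3.32 times in MEFs (2.44 to 4.58). Fgf7 was thus above Fgf10 per length in each of the 13 libraries, and the ratio of muscle FAPs did not overlap that of the other groups.

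Against MEFs Fgf7 was higher in both kinds of FAP. MEFs had 23.9, 25.2, 15.4 and 22.2 CPM, all below every FAP library, and Fgf7 was 4.38-fold higher in FAPs of muscle (edgeR adjusted p = 8.33e-09) and in lung FAPs it was 2.503-fold higher (edgeR adjusted p = 8.83e-07). Fgf10 had 11.3, 12.8, 9.72 and 7.48 CPM in MEFs. It was 5.36-fold higher in lung FAPs (log2 fold change of 2.42, SE 0.18, edgeR adjusted p = 9.69e-09). In muscle FAPs its libraries overlapped those of MEFs and the call was narrow (log2 fold change of 0.42, SE 0.24, edgeR adjusted p = 0.0465): it held under 8 of 23 alternatives, and the value was −0.16 under scaling by library size only.

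FGF1 and FGF2 lack a classical secretion signal, and FGF1 is the ligand that binds every receptor form. Fgf1 had 25.5, 22.03, 19.5 and 24.9 CPM in FAPs of muscle, 143, 86.9, 67.5, 83.3 and 107 in lung FAPs, and 0.582, 0.764, 0.591 and 0.840 in MEFs. The 3 groups formed separate bands, with lung FAPs on top and MEFs below 1 CPM. Fgf1 was 4.24-fold lower in muscle than in lung FAPs (log2 fold change of −2.09, SE 0.20, edgeR adjusted p = 6.12e-07). Against MEFs it was 32.8-fold higher in FAPs of muscle (log2 fold change of 5.04, SE 0.15, edgeR adjusted p = 7.89e-11) and in lung FAPs it was 139-fold higher (log2 fold change of 7.12, SE 0.22, edgeR adjusted p = 3.25e-12). Among the members it had the largest fold change in both comparisons with MEFs.

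Fgf2 differed far less. It had 6.44, 11.3, 11.7 and 7.99 CPM in FAPs of muscle, 11.7, 7.85, 8.02, 9.94 and 6.32 in lung FAPs, and 5.67, 5.01, 3.29 and 7.13 in MEFs, and the ranges of all groups overlapped. Between muscle and lung FAPs the log2 fold change was 0.09 (SE 0.26, edgeR adjusted p = 0.780), it was called under 0 of 23 alternatives, and its sign was negative with library size as the only scaling and without muscle FAP 3 or muscle FAP 4. Fgf2 was 1.77-fold higher in FAPs of muscle than in MEFs (log2 fold change of 0.83, SE 0.31, edgeR adjusted p = 0.00988) and in lung FAPs it was 1.66-fold higher than in MEFs (0.73, SE 0.28, edgeR adjusted p = 0.0150). Neither call held when scaling used library size only (log2 fold changes 0.24 and 0.55, with edgeR adjusted p = 0.401 and 0.0521), and without MEF 3 the call of lung FAPs against MEFs was lost (0.55, edgeR adjusted p = 0.0555). Per length the Fgf1 level was 4.01 times that of Fgf2 in muscle FAPs, 17.1 times in lung FAPs and 0.207 times in MEFs.

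FGF18 and FGF9 are ligands that act mainly on mesenchyme, and FGF18 is known for its part in bone, cartilage and lung development. Fgf18 had 14.8, 17.2, 13.6 and 22.3 CPM in FAPs of muscle, 13.2, 5.02, 7.57, 8.77 and 9.72 in lung FAPs, and 4.41, 6.01, 7.52 and 5.41 in MEFs. All muscle FAP libraries were above all others, by a small margin over lung FAP 1, while lung FAPs and MEFs overlapped. It was 1.91-fold higher in muscle than in lung FAPs (log2 fold change of 0.94, SE 0.28, edgeR adjusted p = 0.00477) and 2.91-fold higher than in MEFs (1.54, SE 0.22, edgeR adjusted p = 7.16e-05). In lung FAPs against MEFs the log2 fold change was 0.60 (SE 0.28, edgeR adjusted p = 0.0371), a call that held under 12 of 23 alternatives and was lost without lung FAP 1, 4 or 5, without MEF 1, 2 or 4, and without muscle FAP 3, a library of neither group that enters the same fit. Adjusted p-values over those 7 fits were 0.0503 to 0.113.

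Fgf9 was a low gene in all groups. It had 0.0874, 1.12, 0.605 and 0.689 CPM in FAPs of muscle, 3.64, 1.31, 1.55, 4.02 and 5.72 in lung FAPs, and 0.800, 0.913, 0.954 and 1.09 in MEFs. Lung FAP 1, 4 and 5 stood above lung FAP 2 and 3, and the lowest lung FAP library was above every muscle FAP and MEF library. Fgf9 was 5.17-fold lower in muscle than in lung FAPs (log2 fold change of −2.37, SE 0.78, edgeR adjusted p = 0.00327) and in lung FAPs it was 3.45-fold higher than in MEFs (1.79, SE 0.41, edgeR adjusted p = 0.00864). Muscle FAPs and MEFs overlapped and were not called apart (log2 fold change of −0.58, SE 0.67, edgeR adjusted p = 0.373). The summed level of 7 mesothelial markers was also higher in lung FAP 1, 4 and 5 than in lung FAP 2 and 3. It was 1028, 662 and 792 CPM in the former and 461 and 453 in the latter. The order differed, as Fgf9 was highest in lung FAP 5 and the sum in lung FAP 1. Fgf1 too was highest in lung FAP 1 and 5 (143 and 107 CPM), with 83.3 in lung FAP 4 and 86.9 in lung FAP 2. The sum was 2.30 to 39.9 CPM in FAPs of muscle and 120 to 158 in MEFs, groups that overlapped for Fgf9. Upk3b was the largest part of the sum in lung FAPs (166 to 438 CPM). In MEFs most of it was Krt19 (77.4 to 102 CPM), also a lung epithelial marker, with Upk3b at 6.09 to 13.3 and Msln at 12.7 to 18.5. The part of mesothelial RNA in the Fgf9 or Fgf1 level was not tested.

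**Figure D2:**
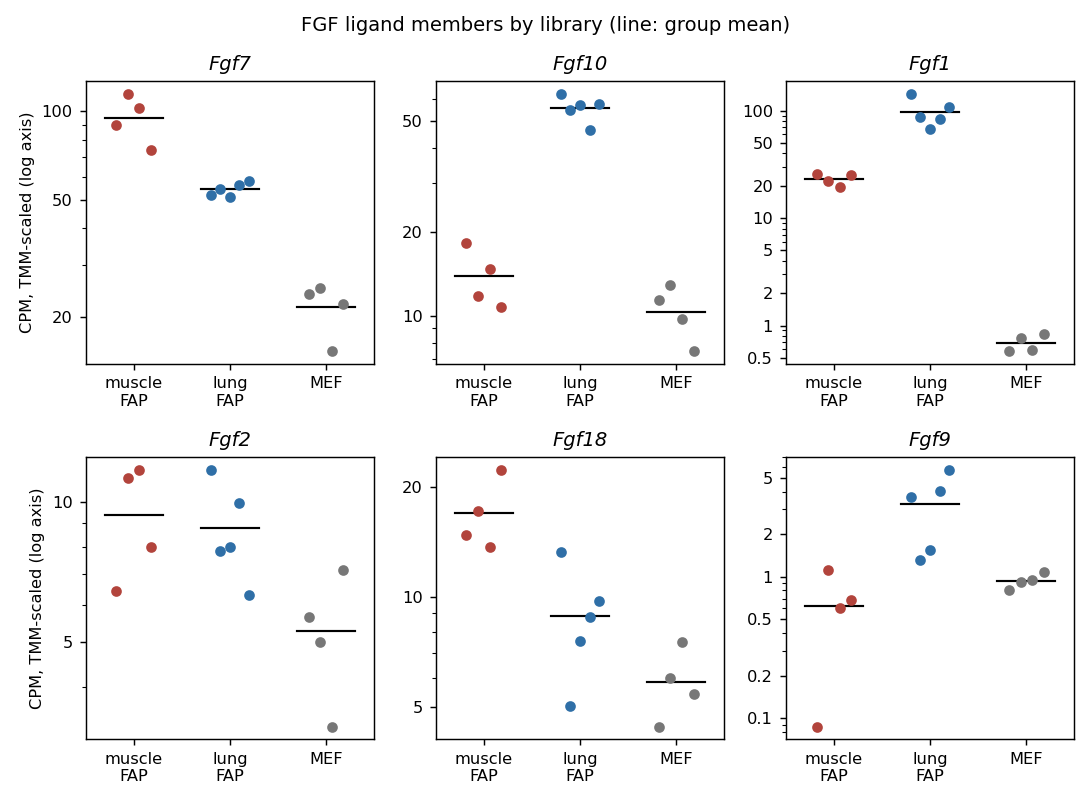
TMM-scaled CPM of the 6 ligands in each of the 13 libraries, on log axes that differ between panels; points are libraries and lines are group means. Fgf7 and Fgf18 are highest in muscle FAPs, Fgf10, Fgf1 and Fgf9 are highest in lung FAPs, and the groups overlap for Fgf2.

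FGFR1 is the main FGF receptor of mesenchymal cells. Fgfr1 had 761, 895, 842 and 743 CPM in FAPs of muscle, 469, 301, 513, 338 and 480.03 in lung FAPs, and 198, 221, 204 and 238 in MEFs. The 3 groups did not overlap and stood in that order. Fgfr1 was 1.93-fold higher in muscle than in lung FAPs (log2 fold change of 0.95, SE 0.17, edgeR adjusted p = 1.10e-04). It was 3.76-fold higher in FAPs of muscle than in MEFs (log2 fold change of 1.91, SE 0.086, edgeR adjusted p = 4.97e-08) and in lung FAPs it was 1.95-fold higher than in MEFs (0.96, SE 0.16, edgeR adjusted p = 4.00e-05).

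FGFR3, a receptor known for its restraint of cartilage growth, and FGFR4, a receptor of liver, regenerating muscle and lung, set lung FAPs apart. Fgfr3 had 3.67, 5.74, 4.52 and 3.68 CPM in FAPs of muscle, 46.3, 142, 103, 66.9 and 83.6 in lung FAPs, and 2.40, 2.42, 3.59 and 2.17 in MEFs. Every lung FAP library was many times above every other library. Fgfr3 was 20.04-fold lower in muscle than in lung FAPs (log2 fold change of −4.32, SE 0.31, edgeR adjusted p = 1.35e-07) and in lung FAPs it was 33.4-fold higher than in MEFs (5.06, SE 0.32, edgeR adjusted p = 5.55e-09). Between muscle FAPs and MEFs the libraries did not overlap, but the call was narrow (log2 fold change of 0.74, SE 0.22, edgeR adjusted p = 0.0437) and held under 9 of 23 alternatives.

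Fgfr4 had 0.204, 0.237, 0 and 0.239 CPM in FAPs of muscle, 11.6, 24.5, 7.24, 5.38 and 10.4 in lung FAPs, and 0.0727, 0.234, 0.159 and 0.0615 in MEFs. In all it had 23 reads in FAPs of muscle, 2013 in lung FAPs and 24 in MEFs. Fgfr4 was 68.5-fold lower in muscle than in lung FAPs (log2 fold change of −6.10, SE 0.70, edgeR adjusted p = 4.31e-06) and in lung FAPs it was 87.3-fold higher than in MEFs (6.45, SE 0.48, edgeR adjusted p = 5.38e-07). The difference between muscle and lung FAPs was −7.12 with limma-voom. No difference between muscle FAPs and MEFs was detectable at this depth (log2 fold change of 0.35, SE 0.67, edgeR adjusted p = 0.688).

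Fgfr3 and Fgfr4 were both highest in lung FAP 2, the lung FAP library with the highest sums of 12 endothelial markers (905 CPM, against 63.2 to 286 in the other lung FAP libraries, 8.80 to 17.6 in muscle FAPs and 217 to 258 in MEFs) and of 10 pericyte and smooth muscle markers (2128 CPM, against 342 to 1338, 78.1 to 88.7 and 2291 to 4021). Their log2 fold changes in muscle against lung FAPs were −4.07 and −5.64 without that library, and −3.90 and −5.73 without lung FAP 2 and 3, all called by edgeR. In lung FAP 1 and 3, where the endothelial sums were lowest among lung FAPs at 72.7 and 63.2 CPM, Fgfr3 was at 46.3 and 103 CPM and Fgfr4 at 11.6 and 7.24, and the pericyte and smooth muscle sums there were 715 and 592 CPM. In MEFs Kdr (155 to 186 CPM) made up most of the endothelial sum, and Acta2 (1856 to 3354 CPM) most of the other. Pecam1 was at 0.410 to 0.743 CPM in MEFs, against 4.44 to 131 in lung FAPs. Myh11 was at 16.4 to 30.9 CPM in MEFs, against 55.0 to 436 in lung FAPs, and Cdh5 and Rgs5 overlapped between both groups. The part of endothelial, pericyte or smooth muscle RNA in either receptor's level was not tested.

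FGFR2, whose epithelial form is the receptor of FGF7 and FGF10, was the one receptor not called between lung FAPs and MEFs. Fgfr2 had 13.6, 12.9, 10.6 and 4.999 CPM in FAPs of muscle, 31.2, 29.9, 48.6, 17.2 and 22.8 in lung FAPs, and 27.1, 27.7, 31.0 and 23.7 in MEFs. Each muscle FAP library was below each library of the other groups. Fgfr2 was 2.85-fold lower in muscle than in lung FAPs (log2 fold change of −1.51, SE 0.41, edgeR adjusted p = 0.00105) and 2.60-fold lower than in MEFs (−1.38, SE 0.34, edgeR adjusted p = 0.00122). Lung FAPs and MEFs overlapped, with a log2 fold change of 0.13 (SE 0.26, edgeR adjusted p = 0.699) that became −0.11 without lung FAP 3. Lung FAP 3 had the highest Fgfr2 level and the highest sum of 15 lung epithelial markers (9070.3 CPM, against 114 to 224 in the other lung FAP libraries, 8.49 to 11.7 in muscle FAPs and 88.2 to 120.2 in MEFs). The sum of 13 blood markers was also highest among lung FAPs in lung FAP 3 (765 CPM, against 52.0 to 87.8), and Lyz2 alone was 615 CPM there. Ptprc was highest in lung FAP 2, at 20.2 CPM against 13.1 in lung FAP 3. Without lung FAP 3 Fgfr2 was called lower in muscle than in lung FAPs (log2 fold change of −1.27, edgeR adjusted p = 0.00139). The part of epithelial or blood RNA in the Fgfr2 level was not tested.

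**Figure D3:**
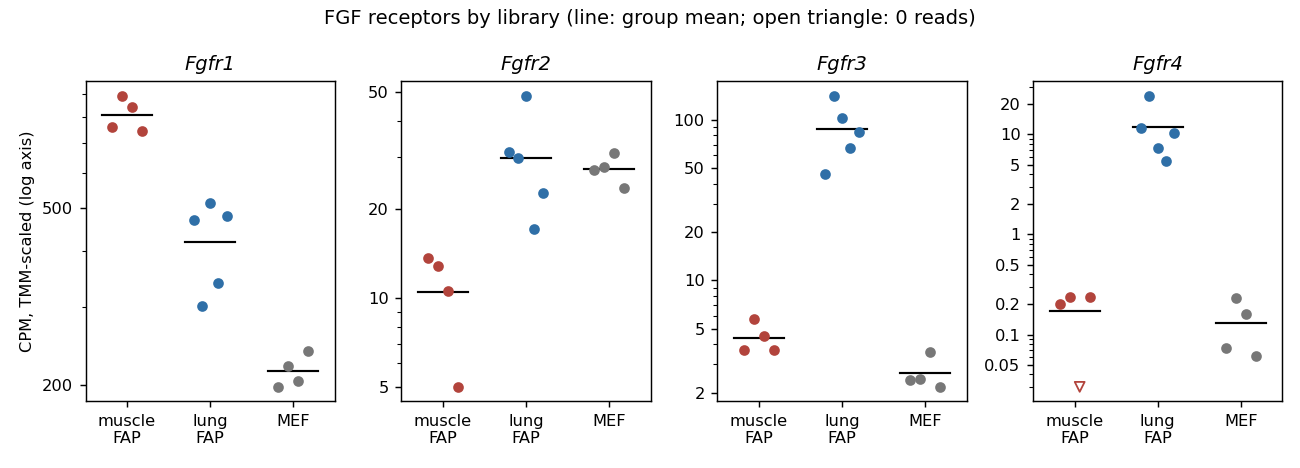
TMM-scaled CPM of the 4 receptors in each library, on log axes that differ between panels; points are libraries, lines are group means and the open triangle, at the foot of the axis, is the muscle FAP library with 0 reads of Fgfr4. Muscle FAPs are highest for Fgfr1 and lowest for Fgfr2, and lung FAPs stand apart from both other groups for Fgfr3 and Fgfr4.

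Against MEFs 8 members were called for muscle FAPs (7 higher, 1 lower), where 73.5% of all genes tested were called, and 9 for lung FAPs (9 higher, 0 lower), where 74.4% were. For muscle FAPs that total is near the share of all genes. By direction, 36.1% of all genes were higher and 37.3% lower in muscle FAPs against MEFs, and 37.8% were higher and 36.6% lower in lung FAPs against MEFs. The libraries did not overlap for 6 members in muscle FAPs against MEFs (73.9% of all genes) and for 7 in lung FAPs against MEFs (65.3%). The 3 comparisons share libraries in pairs and are not independent of each other. The median log2 fold change of the 10 members was −1.76 in muscle against lung FAPs (−0.037 over all genes), 0.78 in muscle FAPs against MEFs (−0.041) and 1.56 in lung FAPs against MEFs (0.019).

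Scaled by transcript length, Fgfr1 was the highest member in every group, at 161 RPKM in FAPs of muscle, 83.3 in lung FAPs and 42.7 in MEFs. In muscle FAPs the next were Fgf7 (35.5 RPKM), Fgf18 (15.6) and Fgf1 (5.77), none of which overlapped its neighbour. Below them Fgf10 (3.37), Fgfr2 (2.38), Fgf2 (1.57) and Fgfr3 (1.04) overlapped with their neighbours in that order, and Fgf9 (0.174) overlapped with Fgfr4 (0.0511). In lung FAPs Fgf1 (24.5 RPKM), Fgfr3 (20.8) and Fgf7 (20.3) followed Fgfr1 and did not differ beyond their spread, and Fgf10 (13.5) came next. From Fgf10 down, through Fgf18 (8.16), Fgfr2 (6.76), Fgfr4 (3.56), Fgf2 (1.47) and Fgf9 (0.904), each neighbouring pair overlapped. In MEFs Fgf7 (8.11 RPKM), Fgfr2 (6.19) and Fgf18 (5.37) followed Fgfr1 with overlap, then Fgf10 (2.52), Fgf2 (0.883), Fgfr3 (0.623), Fgf9 (0.261), Fgf1 (0.174) and Fgfr4 (0.0396), of which Fgf2 and Fgfr3 overlapped. Using all exon bases of a gene in place of its longest transcript changed the order of some neighbours.

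The composition of the set differed by cell type. All 22 FGF ligand genes of the table, counted by name, summed to 72.3 ± 4.53 RPKM in muscle FAPs (SD, n = 4), 81.9 ± 12.96 in lung FAPs (SD, n = 5) and 23.96 ± 1.22 in MEFs (SD, n = 4). The sum includes Fgf11, Fgf12, Fgf13 and Fgf14, intracellular relatives rather than secreted ligands. Fgf13 held 15.6% of it in MEFs, and the other relatives each held at most 1.62% in the mean of any group. Fgf7 made up 48.9 ± 6.88% of that sum in FAPs of muscle, 25.2 ± 3.63% in lung FAPs and 33.8 ± 6.19% in MEFs. Fgf1 made up 8.02 ± 1.24% in FAPs of muscle, 29.4 ± 4.05% in lung FAPs and 0.728 ± 0.135% in MEFs. The share of Fgf10 was 4.69 ± 1.29%, 16.6 ± 2.11% and 10.4 ± 1.93% in that order of groups, and that of Fgf18 was 21.7 ± 5.26%, 9.83 ± 2.23% and 22.5 ± 5.13%. Outside the members, Fgf16 held 8.46 ± 1.84%, 4.01 ± 1.18% and 5.29 ± 0.843% in the same order. Fgf23 held 2.73 ± 1.21%, 8.50 ± 3.33% and 0.0389 ± 0.0264%. The ligand with the highest level per length was Fgf7 in muscle FAPs and MEFs, and Fgf1 in lung FAPs, by their means. The leading shares overlapped in lung FAPs (Fgf1 and Fgf7) and in MEFs (Fgf7 at 24.6% to 38.0% and Fgf18 at 17.3% to 29.5%).

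The 4 receptors summed to 164 ± 14.7 RPKM in muscle FAPs (SD, n = 4), 114 ± 18.9 in lung FAPs (SD, n = 5) and 49.6 ± 3.05 in MEFs (SD, n = 4). Fgfr1 made up 97.9 ± 0.526% of receptor transcripts in FAPs of muscle, 72.7 ± 9.94% in lung FAPs and 86.1 ± 2.19% in MEFs. The remainder was mostly Fgfr3 in lung FAPs (18.4 ± 7.89%, from 9.53% to 31.2% over libraries) and mostly Fgfr2 in MEFs (12.5 ± 1.86%). Fgfr2 held 1.44 ± 0.514% in muscle FAPs and 5.78 ± 1.53% in lung FAPs, and Fgfr4 held 3.17 ± 2.15% in lung FAPs and under 0.1% in the mean of both other groups.

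**Figure D4:**
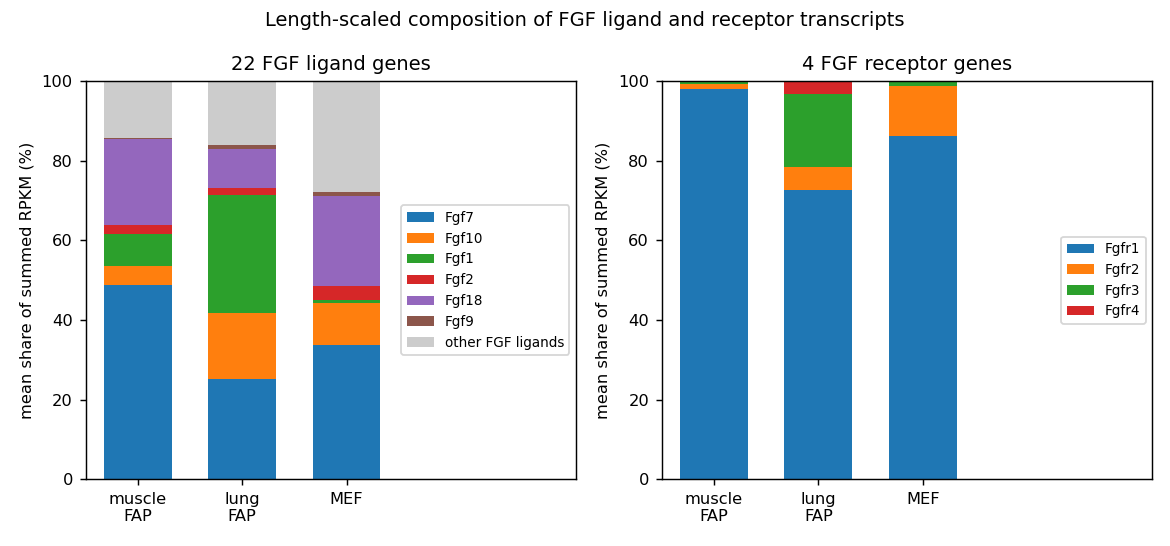
Mean share of summed RPKM held by each member among the 22 FGF ligand genes counted by name (left) and the 4 receptors (right), in muscle FAPs, lung FAPs and MEFs. The 22 include intracellular relatives such as Fgf13. Fgf7 takes 48.9% of the sum of the 22 in muscle FAPs against 25.2% in lung FAPs, and Fgfr1 takes 97.9% of receptor transcripts in muscle FAPs against 72.7% in lung FAPs.

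The genes around the ligands and receptors were read in 6 lists with 88 genes in the table, of which 77 were tested. These lists too were chosen with earlier results of these data known, so their shares beside those of all genes are descriptive. In muscle against lung FAPs 46 of the 77 were called (59.7%, against 48.2% of all genes), 33 higher and 13 lower, and with library size as the only scaling 17 were higher and 27 lower. The list with calls in 1 direction was that of feedback and target genes, which RAS and MAP kinase signalling by FGF and other growth factors is known to induce: of 13 tested, 9 were called higher in muscle FAPs (69.2%, against 23.2% of all genes), 0 lower and 4 not at all, and 7 were higher and 0 lower with library size only. Its median log2 fold change was 1.07, against −0.037 for all genes, and 9 were higher and 0 lower without lung FAP 2 and 3. Markers of tenocytes, the fibroblasts of tendon, moved with these genes: 8 of 8 were higher in muscle FAPs (median log2 fold change 3.71), with a summed level of 6664 to 8651 CPM in FAPs of muscle, 921 to 3029 in FAPs of lung and 80.7 to 168 in MEFs, and none was at 0 in all libraries of a group. Most of that sum is Egr1, a gene that MAP kinase signalling also induces (4782 to 6349 CPM in FAPs of muscle, 808 to 2842 in lung FAPs), and without it the sum was 1362 to 2302 CPM in FAPs of muscle, 98.8 to 187 in FAPs of lung and 47.4 to 53.6 in MEFs. Thbs4 alone averaged 1188 ± 335 CPM in muscle FAPs (SD, n = 4) and 29.9 ± 19.4 in lung FAPs (SD, n = 5). Not every gene of the 8 followed the sums down to MEFs. By edgeR calls, muscle FAPs exceeded MEFs in 6 and fell below them in 2. Lung FAPs exceeded MEFs in 3 and fell below them in 3. Scx had 0.374 to 1.12 CPM in FAPs of muscle and 5.53 to 8.18 in MEFs. Mkx had 2.07 to 3.80 CPM and 7.07 to 9.999 CPM in the same order. The part of tenocyte RNA in the feedback and target genes was not tested.

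The feedback genes that were higher in muscle FAPs included 3 Sprouty genes, whose proteins restrain receptor signalling. Spry1 had 135, 123, 135 and 119 CPM in FAPs of muscle, against 67.0, 64.0, 61.4, 36.3 and 57.5 in lung FAPs, and the groups did not overlap. The log2 fold changes were 1.16 (SE 0.17) for Spry1, 1.86 (SE 0.14) for Spry2 and 1.60 (SE 0.29) for Spry4. Spred1, a related inhibitor of RAS signalling, had the largest fold change among called genes of the list with at least 5 CPM, at 178 ± 30.1 CPM in muscle FAPs (SD, n = 4) and 43.3 ± 6.17 in lung FAPs (SD, n = 5; log2 fold change 2.04, SE 0.16, edgeR adjusted p = 2.88e-08). The MAP kinase phosphatases Dusp4 and Dusp6 were higher by 1.89 (SE 0.56) and 0.63 (SE 0.16) on the log2 scale, and Spred2 by 0.77 (SE 0.18).

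The ETS factors Etv4 and Etv5 are classical targets of FGF signalling. Etv4 had 3.26, 3.11, 4.003 and 2.99 CPM in FAPs of muscle, at most 0.358 in any lung FAP library, and 23.0 to 28.8 in MEFs. Etv5 had 28.6, 37.6, 35.4 and 32.2 CPM in muscle FAPs and 11.7, 9.90, 35.9, 10.3 and 11.6 in lung FAPs, where the high value is that of lung FAP 3. Its call (log2 fold change of 1.07, SE 0.36, edgeR adjusted p = 0.0147) is therefore one in which the groups overlap by 1 library. Spred3, Dusp5, Etv1 and Il17rd were not called, with log2 fold changes of 0.18, 0.31, 0.085 and 0.28. Against MEFs the same list was mixed: 6 were higher and 4 lower in muscle FAPs, and 3 were higher and 6 lower in lung FAPs. In all 76.9% and 69.2% of the list were called there, near the 73.5% and 74.4% of all genes. Spry1 was the called gene with the largest positive change in both (log2 fold changes 2.66 and 1.504), while Dusp4 was lowest in muscle FAPs (−3.93) and Etv4 in lung FAPs (−7.10).

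Heparan sulfate, the third partner of the ligand and receptor complex, is carried by core proteins and shaped by enzymes. Of 12 core protein genes tested, 6 were higher and 4 lower in muscle against lung FAPs (83.3% called, against 48.2% of all genes), and 4 were higher and 5 lower with library size only. Hspg2, which encodes perlecan of basement membranes, was 8.56-fold higher in FAPs of muscle (4964 ± 670.3 CPM, SD, n = 4, against 579.96 ± 323, SD, n = 5; edgeR adjusted p = 5.06e-05). Gpc3, a glypican anchored in the membrane, was 2.70-fold lower (588 ± 160 CPM against 1586 ± 272; edgeR adjusted p = 1.19e-05). Of 16 enzyme genes tested, 9 were higher and 2 lower (68.8% called), and 4 were higher and 5 lower with library size only. Among the sulfotransferases Hs3st3b1 was 3.99-fold higher in FAPs of muscle (edgeR adjusted p = 4.58e-06) and Hs3st1 was 2.96-fold lower (edgeR adjusted p = 2.96e-06).

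The other 3 lists were called at shares nearer to that of all genes. Of 18 genes of signal transduction tested, 6 were higher and 3 lower in muscle than in lung FAPs (50% called, against 48.2% of all genes, 23.2% higher and 25% lower), 3 were higher and 2 lower without lung FAP 2 and 3, and 0 were higher and 8 lower with library size only. Mapk3, which encodes ERK1, was 1.68-fold lower in muscle FAPs (log2 fold change of −0.75, SE 0.067, edgeR adjusted p = 5.93e-05). Map2k1, the kinase above it, was 1.38-fold higher (0.47, SE 0.093, edgeR adjusted p = 0.00333), a call that was lost with library size only (0.062, edgeR adjusted p = 0.661). Of 10 co-receptors and binding proteins 2 were higher and 2 lower (40% called), among them the adhesion protein Ncam1, 3.92-fold higher in FAPs of muscle (6.74 ± 0.815 CPM, SD, n = 4, against 1.72 ± 0.514, SD, n = 5), and Flrt2, 1.78-fold lower.

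The remaining genes counted as FGF ligands by name were mostly low, and 8 of 16 passed the filter. In muscle against lung FAPs 1 was higher and 2 were lower (37.5% called), and 0 were higher and 5 lower with library size only. Fgf23, a hormone of phosphate balance that needs the co-receptor Klotho, had 5.71, 3.43, 2.65 and 2.45 CPM in FAPs of muscle, 17.3, 19.1, 9.39, 10.2 and 7.16 in lung FAPs, and 3 reads over all MEF libraries. It was 3.55-fold lower in muscle than in lung FAPs (log2 fold change of −1.83, SE 0.38, edgeR adjusted p = 3.69e-04). Its ratio to MEFs was 215 in muscle FAPs (95% interval 73.3 to 1048) and 772 in lung FAPs (264 to 3746), intervals that cover counting error only. The Klotho gene itself was at most 0.769 CPM in FAPs of muscle, 0.656 in lung FAPs and 0.0820 in MEFs. Fgf16 was 1.83-fold higher in muscle than in lung FAPs with overlapping libraries (log2 fold change of 0.87, SE 0.31, edgeR adjusted p = 0.0123; 0.49 and adjusted p = 0.0981 by edgeR with library size only). Fgf13, an intracellular relative that does not act through the receptors, was lower in both kinds of FAP than in MEFs, at 0.124 ± 0.194 CPM in muscle FAPs (SD, n = 4), 0.461 ± 0.454 in lung FAPs (SD, n = 5) and 9.31 ± 1.09 in MEFs (SD, n = 4), and made up 15.6% of the MEF ligand sum per length. Muscle FAP 2 held 14 of the 17 reads of Fgf13 in muscle FAPs, and the log2 fold change against MEFs was −6.19, or −8.17 without it. In lung FAPs against MEFs it was −4.32, or −5.07 without lung FAP 5, which held 40 of 78 reads.

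**Figure D5:**
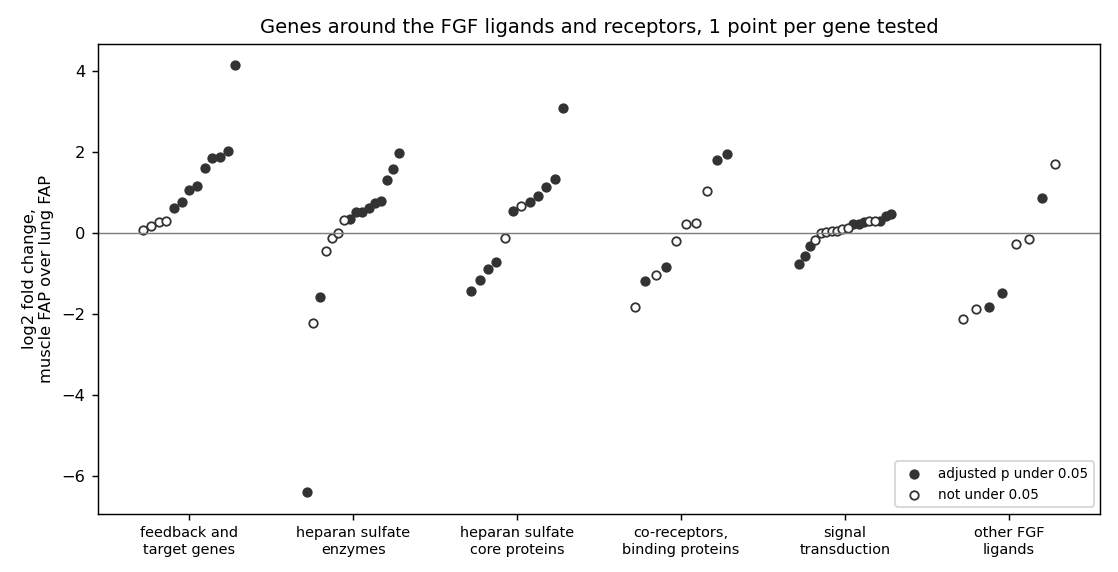
Log2 fold change of muscle over lung FAPs for the 77 tested genes of the 6 lists, 1 point per gene in ascending order within a list; filled points have an edgeR adjusted p under 0.05. The called feedback and target genes lie above 0, and the other lists have calls on both sides; the lowest point is Hs6st3, with 1 read in muscle FAPs and 150 in lung FAPs, named after its value was seen.

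Against MEFs the 6 lists had 30 genes higher and 29 lower in muscle FAPs (22 and 43 with library size only), and 23 higher and 33 lower in lung FAPs. These are 76.6% and 72.7% of the 77 genes, near the 73.5% and 74.4% called over all genes. Tgfbr3, a proteoglycan receptor also called betaglycan, was 42.1-fold higher in FAPs of muscle than in MEFs, and Gpc3 was 30.1-fold higher in lung FAPs than in MEFs. On the other side the cadherin gene Cdh2 was 125-fold lower in muscle FAPs and Ncam1 was 76.7-fold lower in lung FAPs, with edgeR adjusted p of 1.01e-06 and 8.99e-13. Heparanase (Hpse) was higher in both kinds of FAP, by 7.55-fold in muscle and 8.16-fold in lung FAPs. The sulfotransferase Hs6st2 was lower in both, by 35.5-fold in muscle and 87.8-fold in lung FAPs. Muscle FAP 5 held 154 of its 287 reads in muscle FAPs, and without that library the log2 fold change of muscle FAPs against MEFs was −5.88 in place of −5.15.

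For each member the 3 genes with the most similar profile over the 13 libraries were found by the root mean square distance between log2 CPM values centred on their means. Fgfr1 had the closest of these, Tshz1 at a distance of 0.15, followed by Zfp592 and Tor1aip1, and Fgf7 was nearest to Ripk1 (0.17), Hmgb2 and Elf1. Fgf18 was nearest to Acpl2 (0.22), Fgf2 to Stag1 (0.26), Fgf10 to Carns1 (0.26), Fgf1 to Gabra3 (0.27) and Fgfr2 to Napepld (0.33). Gabra3 ran at 40.6 CPM in FAPs of muscle, 171 in lung FAPs and 1.07 in MEFs, and C2, the next gene for Fgf1, at 83.7, 364 and 3.91. The distances were larger for Fgfr3 (Cpa3, 0.46), Fgf9 (Tceal3, 0.57) and Fgfr4 (Glb1l2 and Esam, both 0.64). Esam is one of the 12 endothelial markers, and like Fgfr4 it was highest among lung FAPs in lung FAP 2.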

How the data were processed

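RNA of 13 mouse samples was sequenced, with total RNA extracted by Trizol and a column kit and libraries made by an Illumina protocol, per the labels. Per the submitters' processing notes, the tools were Bowtie2 2.1.0.0, HTSeq and edgeR, and the build was mm10. Which annotation, strand setting and batches applied is not given in the sources used here. The deposited table holds raw read counts per gene, as the authors counted them, for 23418 genes and 13 libraries, with 0 columns of other samples.

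Groups were taken from the labels. TMM-scaled counts went into edgeR 4.0.16 under R 4.3.3 (quasi-likelihood, robust, filterByExpr, all 13 libraries in 1 fit), adjusted over 15412 genes. The SE comes from log2 CPM with a prior count of 2. RPKM values were computed from TMM-scaled CPM and the longest GENCODE M21 transcript. At 3 counts over a group the floor is 0.0220 CPM in FAPs of muscle, 0.0180 in lung FAPs and 0.0166 in MEFs, which covers counting error only. Fits were checked on simulated data. No 2 libraries agreed within sampling noise (chi-square per degree of freedom 22.3 to 164 over 22 pairs within groups).

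Named genes are the 10 members, the called gene with the largest log2 fold change in each direction per list and comparison (where the higher group averaged 5 CPM or more), and the 3 genes nearest each member in profile. Further list members and Klotho are given as examples. Members and lists were chosen with earlier results of these data known. Alternatives were DESeq2 1.42.0 size factors and Wald test, upper-quartile scaling, library size only, no filter, at least 5 CPM in at least 4 libraries, limma-voom (limma 3.58.1) with sample weights, only the compared groups, a replicate block, each library left out, and lung FAP 2 and 3 left out. Promoter sequences are from RefSeq, GRCm38.p6.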

Additional observations from a re-analysis of the deposited data

Results flagged for a closer look

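Among the 30 sets of a member's libraries within a group, 1 held a library far from the others by Dixon's criterion, where chance gives about 1 in 20. Fgfr4 was at 0 CPM in muscle FAP 4, and the nearest of the other muscle FAP libraries was at 0.204 CPM, a gap of 0.851 of the group's range. A count of 0 in that library allows up to 0.0864 CPM. All muscle FAP libraries together had 23 reads of Fgfr4.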

How the results depend on the processing

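In muscle against lung FAPs the 9 called members kept their calls and directions under the alternatives that tested them. Scaling by library size alone moved the median log2 fold change of all genes to −0.44 (muscle against lung FAPs), −0.62 (muscle FAPs against MEFs) and −0.15 (lung FAPs against MEFs), from −0.037, −0.041 and 0.019, and upper-quartile scaling moved the first to −0.11. With library size only 5 members were called in muscle FAPs against MEFs (4 higher, 1 lower), and the log2 fold change turned negative for Fgf10 (−0.16) and Fgfr4 (−0.21, and −0.69 with limma-voom) there, for Fgf2 in muscle against lung FAPs (−0.31) and for Fgfr2 in lung FAPs against MEFs (−0.044). With 1 library left out Fgf2 ran between −0.035 and 0.24 (negative without muscle FAP 3, −0.011, or 4) and Fgfr2 between −0.11 (without lung FAP 3) and 0.25, and without lung FAP 2 and 3 Fgfr2 was at −0.21. Leaving out 1 library gave 9 to 9 called members in muscle against lung FAPs, 6 to 8 in muscle FAPs against MEFs and 8 to 9 in lung FAPs against MEFs, and 39 to 47, 57 to 63 and 54 to 59 called list genes in the same order. Deviations from group means were little correlated between libraries of the same replicate number (r from −0.048 to 0.061 over 11 pairs). That check can miss a shared source, so pairing is not excluded. With the replicate block 9, 7 and 8 members and 42, 58 and 56 list genes were called. Depth limits Fgfr4 and Fgf9 outside lung FAPs.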
